A study of Mus musculus with 12 samples.

Results

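Titin, the M-band proteins that anchor one end of it and the Z-disc proteins around its other end were followed through 12 mouse heart RNA libraries, as 9 of the 27504 genes in the deposited count matrix. The genes were listed by symbol, with earlier results of these data known: Ttn, Myom1, Myom2, Ldb3, Actn2, Nebl, Tcap, Des and Myoz2. Each of the 9 passed the filter on low counts that left 16723 genes for testing. The hearts came from wild-type C57BL/6 mice at postnatal day 45. AngII mice were a hypertrophy model in which angiotensin II, a peptide hormone that raises blood pressure, enlarges the heart, and sham mice had a control operation. Each of these 2 arms had 3 groups of 2 libraries, from mice given vehicle alone or gastrodin at 5 or 50 mg/kg/day by stomach for 7 days. Gastrodin is a phenolic glucoside from the orchid Gastrodia elata. Libraries carry the numbers of their labels: 1 and 2 for AngII with vehicle, 3 and 4 for AngII with 5 mg, 5 and 6 for AngII with 50 mg, 7 and 8 for sham with vehicle, 9 and 10 for sham with 5 mg, and 11 and 12 for sham with 50 mg. Nothing in the labels ties a library to its own animal, so the p-values below measure the spread between these libraries, which may be technical.

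Titin is a giant elastic filament that spans from the Z-disc, where thin filaments of neighbouring sarcomeres are cross-linked, to the M-band, where thick filaments are held in register. At the Z-disc its end is capped by telethonin (Tcap) and bound by alpha-actinin (Actn2). Alpha-actinin also binds the PDZ-LIM protein cypher (Ldb3) and the calcineurin-binding protein calsarcin-1 (Myoz2), and nebulette (Nebl) reaches from the Z-disc along the thin filament. At the M-band titin is bound by myomesin (Myom1) and M-protein (Myom2), which bridge thick filaments. Desmin (Des) forms the intermediate filaments that tie Z-discs to one another and to the cell membrane.

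Positions are those of GENCODE on GRCm38. Ttn lies at chr2:76703980-76982547 on the minus strand, and its annotated exons together cover 116825 bases, which makes it number 2 by exon length among the tested genes. Myom1 lies at chr17:71002633-71126856 and Myom2 at chr8:15057653-15133541, both on the plus strand. Actn2 is at chr13:12269426-12340760, Ldb3 at chr14:34526603-34588682, Myoz2 at chr3:123006206-123035015 and Nebl at chr2:17343909-17731464, each on the minus strand. Tcap at chr11:98383811-98384953, with 948 exon bases, and Des at chr1:75360329-75368579 are on the plus strand. Exons of Myom1 share 207 bases with Myl12a and those of Des share 220 bases with Gm15179, in each case on the opposite strand. The sources used here do not give the strand setting of the counting, so reads from those bases cannot be told apart.

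The promoter windows of 4 members are shown because they lie upstream of the gene's start in both GENCODE and RefSeq and belong to genes that differ in the main comparison: Ttn and Actn2, which rose among AngII libraries, and Des and Myoz2, which did not pass the test. Each is a RefSeq window of 222 bases on GRCm38.p6 that runs 5′ to 3′ on the gene's strand and ends 29 bases before the RefSeq start. Capitals mark a match to the motif of MEF2, a family of transcription factors active in muscle. The windows are chr2:76982576-76982797 (minus strand) for Ttn, chr13:12340761-12340982 (minus strand) for Actn2, chr1:75360042-75360263 (plus strand) for Des and chr3:123035016-123035237 (minus strand) for Myoz2.
Ttn: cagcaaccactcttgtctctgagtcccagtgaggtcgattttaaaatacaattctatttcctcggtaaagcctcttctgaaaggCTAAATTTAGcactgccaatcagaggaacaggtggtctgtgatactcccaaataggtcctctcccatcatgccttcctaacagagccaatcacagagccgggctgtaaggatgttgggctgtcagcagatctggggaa
Actn2: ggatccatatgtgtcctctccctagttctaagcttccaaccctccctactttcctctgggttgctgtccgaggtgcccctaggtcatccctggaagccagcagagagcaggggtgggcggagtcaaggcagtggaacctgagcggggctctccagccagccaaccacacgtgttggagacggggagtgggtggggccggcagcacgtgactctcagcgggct
Des: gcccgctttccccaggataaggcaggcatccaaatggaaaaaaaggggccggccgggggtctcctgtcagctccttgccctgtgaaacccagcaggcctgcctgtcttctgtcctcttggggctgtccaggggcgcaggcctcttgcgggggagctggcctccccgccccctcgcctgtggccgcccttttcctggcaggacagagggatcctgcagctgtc
Myoz2: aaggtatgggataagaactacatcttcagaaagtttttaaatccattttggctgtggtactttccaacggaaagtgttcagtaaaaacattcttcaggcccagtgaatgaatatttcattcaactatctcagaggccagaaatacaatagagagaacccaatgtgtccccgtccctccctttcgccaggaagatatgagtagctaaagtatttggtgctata
Both strands were searched for 5 motifs. These were the MEF2 motif, the CArG box bound by serum response factor, and the letters CATTCC, known as the M-CAT element. The remaining motifs were AGATAA, bound by GATA factors, and the TATA box, searched as TATAAA, which can overlap a MEF2 match. The Ttn window held the MEF2 match CTAAATTTAG, and the letters of these 5 motifs are not in the Actn2, Des and Myoz2 windows. Among all 32851 RefSeq windows of this length, 0.423% held a MEF2 match, 1.31% a CArG box, 11.5% CATTCC, 10.1% TATAAA and 9.1% AGATAA. Windows for 7 of the 9 members were in the RefSeq table, and those of Myom1, Ldb3 and Nebl are not printed because they lie inside a gene span.

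Some features of the libraries bear on every result. Total counts were 63488815 to 78604709 per library, of which mitochondrial genes took 63.1 to 74.5% and 7 genes with near-copies of mitochondrial sequence took 15.9 to 19.5%. The nuclear genes that remained averaged 13.2 ± 5.28% of counts among AngII libraries and 8.09 ± 1.47% among sham libraries (SD, n = 6 each; exact permutation test, 2-sided, p = 0.0433), which left 4486903 to 15162312 nuclear counts per library. AngII 5 mg library 4 had the lowest nuclear share of its arm, 7.49%. Ribosomal RNA took 11.1% of counts in sham 50 mg library 12, 0.983% in sham 5 mg library 10 and at most 0.2% elsewhere. The slope of centred log2 CPM on log2 exon length was 0.08 ± 0.08 among AngII libraries and -0.08 ± 0.03 among sham libraries (SD, n = 6 each; exact permutation test, 2-sided, p = 0.00866). Its counterpart on GC content, per 10 percentage points, was 0.16 ± 0.16 among AngII libraries and -0.16 ± 0.05 among sham libraries (SD, n = 6 each; exact permutation test, 2-sided, p = 0.00216, the smallest that 6 against 6 allows).

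Heart muscle markers were abundant in every library. The summed level of 10 cardiomyocyte markers was 5342 to 9461 CPM (median 8326) among AngII libraries and 3592 to 6865 CPM (median 5286) among sham libraries. CPM here are counts relative to library size after TMM, a normalisation to the bulk of genes. Skeletal muscle markers summed to 5.09 to 10.6 CPM among AngII libraries and 9.6 to 12.8 CPM among sham libraries, and the fast myosin heavy chains Myh2 and Myh4 had no count in any library. In whole-heart RNA, fewer cells of a type and less RNA per cell cannot be told apart.

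The main comparison asked how the AngII arm differed from the sham arm, averaged over the 3 gastrodin doses so that 6 libraries stood on each side. Ttn, Actn2, Myom1 and Ldb3 rose and Myom2 fell, while Tcap, Nebl, Des and Myoz2 did not pass edgeR's quasi-likelihood test at a Benjamini-Hochberg adjusted p of 0.05 over all 16723 genes. The 4 of 9 members called higher and 1 of 9 called lower stand beside 13.4% of all tested genes called higher and 7.53% called lower, or 20.9% in either direction. The median log2 fold change was 0.57 over the 9 members and 0.10 over all tested genes. The count depended on single libraries: without AngII vehicle library 1 the test called Ttn alone, and without sham vehicle library 8, sham 5 mg library 10, sham 50 mg library 12 or AngII 50 mg library 6 it called 2 members, and without AngII 5 mg library 3, sham 5 mg library 9 or sham 50 mg library 11 it called 3. Removal of each library's trend on exon length also gave 3, namely Ttn, Myom2 and Myoz2. With the trend on GC content removed it called 3 as well, namely Ttn, Myom1 and Myom2. With each library's nuclear share as a covariate it called 0 of 9 members, and 398 genes higher and 74 lower of all 16723. In that fit Ttn had a log2 fold change of 0.93 (edgeR adjusted p = 0.0959), Ldb3 0.56 and Myom2 -0.48 (edgeR adjusted p = 0.124 for each).

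**Figure D1:**
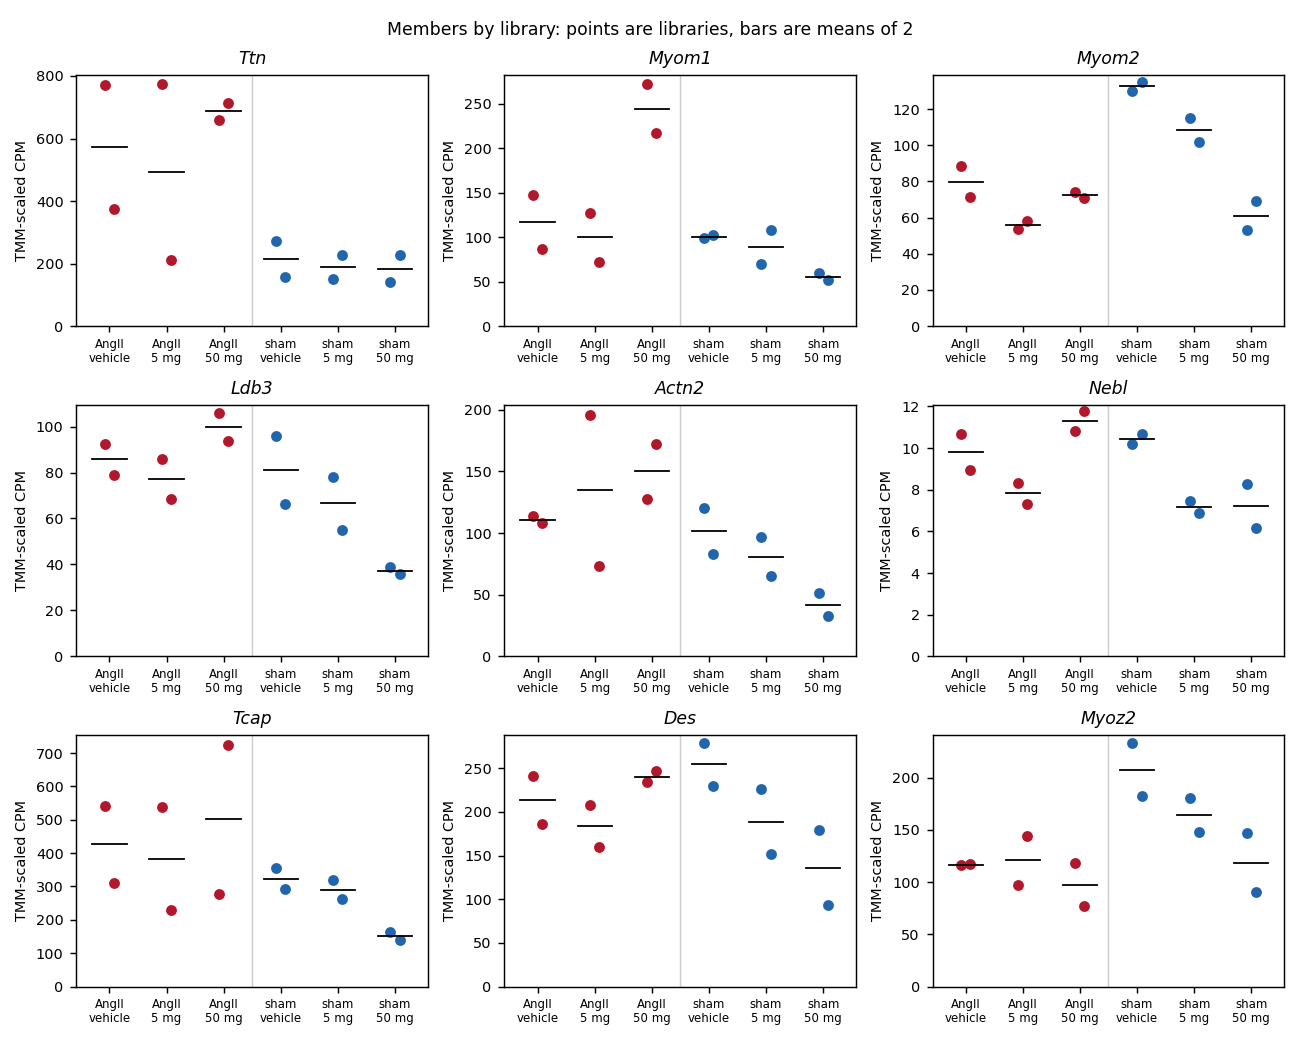
TMM-scaled CPM of the 9 genes on linear axes from 0, with AngII groups (red) left of sham groups (blue); each point is 1 library and each bar the mean of 2. The Ttn panel shows 5 AngII libraries between 375 and 773 CPM above every sham library, and the Myom2 panel shows the AngII libraries between 53.5 and 88.5 CPM, under the sham median of 109 CPM.

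Titin RNA showed the largest difference of the 9 in this comparison. Ttn stood at 771 and 375 CPM in the AngII vehicle libraries, 773 and 213 CPM in those with 5 mg, and 659 and 715 CPM in those with 50 mg. Sham hearts held 272 and 156 CPM with vehicle, 152 and 227 CPM with 5 mg, and 142 and 226 CPM with 50 mg. The arms overlapped by a single AngII library: library 4, at 213 CPM, lay inside the sham range, and the other 5 lay above it. Ttn averaged 584 ± 235 CPM among AngII libraries and 196 ± 53.3 CPM among sham libraries (SD, n = 6 each), a log2 fold change of 1.57 ± 0.32 (SE) or 2.96-fold, with an edgeR adjusted p of 0.007. Each of the 12 refits that left out 1 library called it, with log2 fold changes of 1.18 to 1.79. Ttn's exon length belongs beside this value: with each library's trend on exon length removed, the log2 fold change was 0.72 ± 0.24 (SE) and the edgeR adjusted p 0.0464. Only 5 tested genes have 50000 exon bases or more, so the trend at Ttn's length rests mostly on shorter genes. Removal of the trend on GC content gave 1.47 ± 0.33 (SE).

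Across all genes the AngII difference varied with exon length. Among genes with a mean of at least 1 CPM, the median log2 fold change was -0.42 for exon lengths under 1000 bases, 0.10 for 4000 to 8000 bases and 0.40 for 16000 bases and more. In the last of these classes, 36.7% of 240 genes were called higher and 3.75% lower. Ttn, the longest member, had the largest value, but the order of the others was not that of their length. With the length trend removed, every member's value was lower, and the median over all genes went from 0.097 to -0.121. Tcap, the shortest of the 9 and the one with the highest GC content (61.3%), had a log2 fold change of 0.84, while Nebl, with 15235 exon bases, had 0.23 and Myom2, with 8853 exon bases, had -0.48. The median over all genes also varied with GC content, at -0.32 under 40% and 0.37 at 60% and more.

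**Figure D2:**
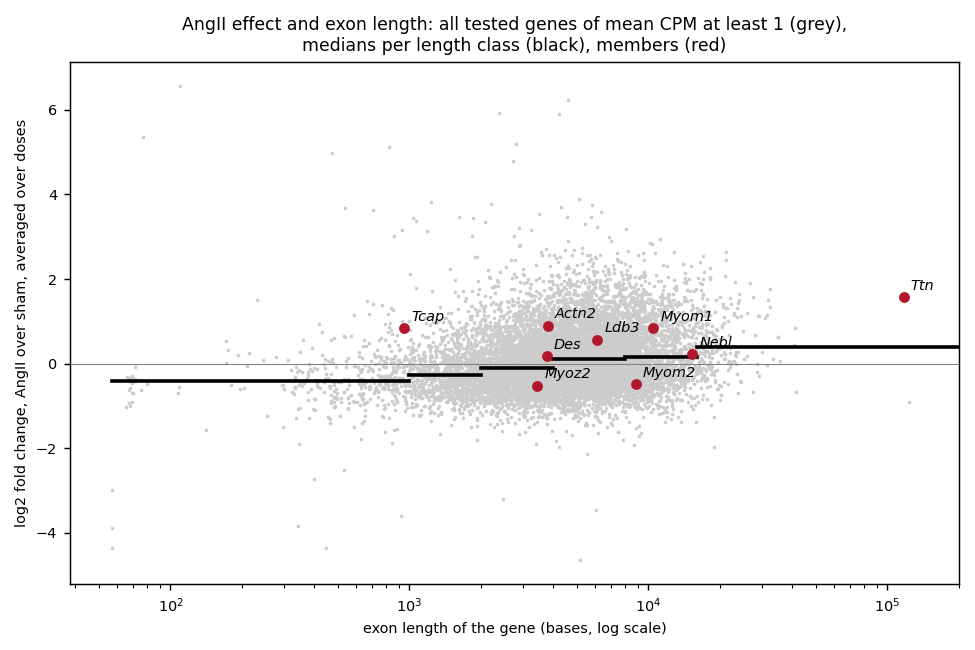
Log2 fold change of AngII over sham, averaged over doses, against the exon length of each gene (log axis, bases); grey points are tested genes of mean CPM at least 1, black bars are medians per length class and red points are the 9 genes. Ttn, at 116825 bases and 1.57, lies above the 0.40 median of the longest class, and Tcap, at 948 bases and 0.84, lies above the -0.42 median of the shortest.

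At the M-band the myomesin genes Myom1 and Myom2 went opposite ways on the TMM scale, with Myom2 called lower there. On log2(TPM + 1) Myom2 had 0.12, where the median over all genes was 0.216, and it was not called. Myom1 stood at 148 and 87 CPM in the AngII vehicle libraries, 127 and 72.6 CPM in those with 5 mg, and 272 and 217 CPM in those with 50 mg. Sham libraries held 98.7 and 102 CPM with vehicle, 70 and 108 CPM with 5 mg, and 59.9 and 51.7 CPM with 50 mg. Of the AngII libraries, 4 lay above every sham library, and the pair with 50 mg was highest. Myom1 averaged 154 ± 77.1 CPM among AngII libraries and 81.8 ± 24.1 CPM among sham libraries (SD, n = 6 each), a log2 fold change of 0.84 ± 0.21 (SE) with an edgeR adjusted p of 0.0162. It was not called without library 1 (edgeR adjusted p = 0.0594) or 9 (edgeR adjusted p = 0.0523), with the length trend removed (0.53 ± 0.20, SE; edgeR adjusted p = 0.0689) or with the nuclear share as a covariate (0.61 ± 0.21, SE; edgeR adjusted p = 0.135).

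Myom2 stood at 88.5 and 71.3 CPM in the AngII vehicle libraries, 53.5 and 58.4 CPM in those with 5 mg, and 74.1 and 71 CPM in those with 50 mg. Its sham levels were 130 and 135 CPM with vehicle, 115 and 102 CPM with 5 mg, and 52.9 and 69 CPM with 50 mg. Sham libraries with vehicle or 5 mg lay above every AngII library, whereas the sham libraries with 50 mg lay among or below them. Myom2 averaged 69.5 ± 12.4 CPM among AngII libraries and 101 ± 33.3 CPM among sham libraries (SD, n = 6 each), a log2 fold change of -0.48 ± 0.16 (SE) with an edgeR adjusted p of 0.0469. That call was the least steady of the 5 when a library was left out: it held in 1 of the 12 such refits. It was kept with the length trend removed (-0.77 ± 0.18, SE; edgeR adjusted p = 0.0105) and with the GC trend removed (-0.73 ± 0.18, SE; edgeR adjusted p = 0.0121). In those fits the median over all genes was -0.121 and -0.117. With the nuclear share as a covariate Myom2 was not called.

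The ratio of the M-band pair within a library needs no scaling between libraries. Counts of Myom1 over Myom2 were 1.67 and 1.22 in AngII hearts with vehicle, 2.37 and 1.24 with 5 mg, and 3.66 and 3.06 with 50 mg. The same ratio was 0.759 and 0.758 in sham hearts with vehicle, 0.607 and 1.06 with 5 mg, and 1.13 and 0.75 with 50 mg. Each AngII library thus exceeded every sham library. Ttn over Myom2 was 3.65 to 14.5 (median 8.81) among AngII libraries and 1.16 to 3.27 (median 2.16) among sham libraries, again with no overlap. Of the 36 ratios between members, 7 did not overlap between the arms, and 5 of the 7 had Myom2 in them, as did 8 of the 36. Trends on exon length and GC content stay in a ratio where the 2 genes differ in those properties. Among all pairs of genes that each averaged 10 CPM or more, a mean that Nebl did not reach, 14.0% did not overlap. A ratio shows that 2 genes changed unequally, not which of them did.

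**Figure D3:**
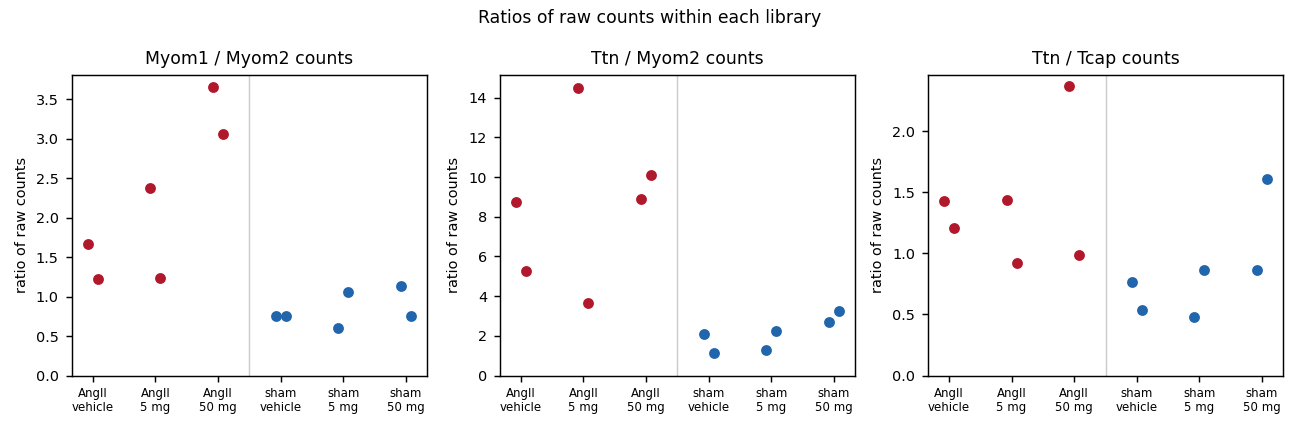
Ratios of raw counts within each library for Myom1 over Myom2, Ttn over Myom2 and Ttn over Tcap, on linear axes from 0; each point is 1 library, with AngII groups (red) left of sham groups (blue). The first ratio is 1.22 to 3.66 in AngII libraries and 0.607 to 1.13 in sham libraries, with no overlap, while Ttn over Tcap overlaps, at 0.925 to 2.37 in AngII libraries and 0.476 to 1.61 in sham libraries.

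Among the Z-disc genes, Actn2 and Ldb3 rose. Actn2, the cross-linker of thin filaments, stood at 114 and 108 CPM in AngII vehicle hearts, 196 and 73.3 CPM with 5 mg, and 128 and 172 CPM with 50 mg. In sham hearts it stood at 120 and 82.7 CPM with vehicle, 96.8 and 65 CPM with 5 mg, and 51.1 and 33 CPM with 50 mg. The vehicle groups of the 2 arms overlapped, and the 50 mg groups were far apart. Actn2 averaged 132 ± 44.7 CPM among AngII libraries and 74.8 ± 31.6 CPM among sham libraries (SD, n = 6 each), a log2 fold change of 0.90 ± 0.25 (SE) with an edgeR adjusted p of 0.0244. Of the 12 refits without a library, 7 called it. It was not called with the length trend removed (0.65 ± 0.25, SE; edgeR adjusted p = 0.0749) or with the GC trend removed (0.49 ± 0.24, SE; edgeR adjusted p = 0.143). Nor was it called with the nuclear share as a covariate (0.50 ± 0.25, SE; edgeR adjusted p = 0.312).

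Ldb3 stood at 92.4 and 79.1 CPM in AngII hearts with vehicle, 85.7 and 68.5 CPM with 5 mg, and 106 and 93.8 CPM with 50 mg. Sham hearts gave 95.7 and 66.4 CPM with vehicle, 77.9 and 55.2 CPM with 5 mg, and 38.9 and 35.7 CPM with 50 mg. A single AngII library lay above the whole sham range, and every AngII library lay above the sham median of 60.8 CPM. The sham libraries with 50 mg were the lowest, and the log2 fold change was 0.08 with vehicle, 0.21 at 5 mg and 1.42 at 50 mg. Ldb3 averaged 87.7 ± 13.1 CPM among AngII libraries and 61.6 ± 23.1 CPM among sham libraries (SD, n = 6 each), a log2 fold change of 0.57 ± 0.17 (SE) with an edgeR adjusted p of 0.0351. That call held in 4 of the 12 refits without a library, and it was lost with the length trend removed (0.30 ± 0.19, SE; edgeR adjusted p = 0.261) and with the GC trend removed (0.39 ± 0.19, SE; edgeR adjusted p = 0.157).

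Tcap, the cap on titin's Z-disc end, had a log2 fold change like that of Myom1 but missed the threshold. Its AngII levels were 541 and 311 CPM with vehicle, 537 and 230 CPM with 5 mg, and 278 and 725 CPM with 50 mg. The sham levels were 356 and 291 CPM with vehicle, 318 and 261 CPM with 5 mg, and 164 and 140 CPM with 50 mg. Within each AngII group the libraries were far apart. In each of these groups the library with the larger nuclear share of counts (1, 3 and 6) had the higher Tcap, as was also true of Ttn, Actn2, Nebl and Des. The log2 fold change was 0.84 ± 0.28 (SE) with an edgeR adjusted p of 0.0509, and 7 of the 13 alternatives that kept every library or left out libraries 4 and 12 together called it, DESeq2 among them (adjusted p = 0.0109). The log2 fold change was 0.17 ± 0.21 (SE) with the nuclear share as a covariate and 0.32 ± 0.25 (SE; edgeR adjusted p = 0.37) with the GC trend removed.

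Myoz2 and Nebl, the other Z-disc members, did not pass the test. Myoz2 was 77 to 144 CPM (median 116) among AngII libraries and 90.2 to 233 CPM (median 164) among sham libraries, and each AngII library was below the sham median. Its log2 fold change was -0.52 ± 0.20 (SE), with an edgeR adjusted p of 0.0807. Myoz2 was called lower by DESeq2 (DESeq2 adjusted p = 0.0317) and with the length trend removed (-0.73 ± 0.22, SE; edgeR adjusted p = 0.0306). It was not called with the GC trend removed (-0.53 ± 0.22, SE; edgeR adjusted p = 0.096) or with the nuclear share as a covariate (-0.24 ± 0.17, SE). Nebl was the scarcest member, at 7.33 to 11.8 CPM among AngII libraries and 6.16 to 10.7 CPM among sham libraries, with a log2 fold change of 0.23 ± 0.16 (SE) and an edgeR adjusted p of 0.31. Desmin RNA was 160 to 247 CPM (median 221) among AngII libraries and 93.6 to 279 CPM (median 203) among sham libraries. Des had a log2 fold change of 0.18 ± 0.21 (SE) with an edgeR adjusted p of 0.575, and no refit called Des or Nebl.

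The arms overlapped for each of the 9 members, against 7.36% of tested genes whose 6 AngII and 6 sham libraries did not overlap. Set against the summed counts of the 10 cardiomyocyte markers in the same library, Ttn amounted to 7.35 ± 2% among AngII libraries and 3.91 ± 1.34% among sham libraries (SD, n = 6 each). Ldb3 amounted to 1.17 ± 0.148% among AngII libraries and 1.16 ± 0.214% among sham libraries (SD, n = 6 each). In the same order, Myom1 amounted to 1.93 ± 0.681% and 1.58 ± 0.337%, and Actn2 to 1.7 ± 0.348% and 1.39 ± 0.334%. Tcap amounted to 5.57 ± 1.64% and 4.82 ± 0.824%, Des to 2.81 ± 0.281% and 3.65 ± 0.686%, and Nebl to 0.128 ± 0.0183% and 0.162 ± 0.0268%. The marker Myh6, part of the sum, itself averaged 3202 ± 1134 CPM among AngII libraries and 1294 ± 455 CPM among sham libraries (SD, n = 6 each). Myom2 was 0.623 to 1.21% of the markers among AngII libraries and 1.19 to 2.48% among sham libraries, and Myoz2 was 0.814 to 2.69% among AngII libraries and 2.51 to 3.39% among sham libraries. By this measure, too, the arms overlapped for every member.

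The arms can also be compared at each dose, with 2 libraries against 2. With vehicle alone, edgeR called 0 of 9 members, where 0.0598% of all genes were called. The unadjusted p was under 0.05 for 3 members, limma-voom called 0 and DESeq2 called 1, Myom2. Ttn had a log2 fold change of 1.42 ± 0.56 (SE; edgeR adjusted p = 0.246) and Myom2 one of -0.73 ± 0.27 (SE; edgeR adjusted p = 0.236), while Actn2 had 0.13, Ldb3 0.08 and Myom1 0.22. At 5 mg edgeR again called 0 of 9, beside 0% of all genes; the unadjusted p was under 0.05 for 2 members, limma-voom called 0 and DESeq2 called 1, again Myom2. Ttn then had 1.38 and Myom2 -0.96 ± 0.27 (SE; edgeR adjusted p = 0.278).

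At 50 mg, Myom1, Actn2 and Ldb3 were higher in AngII than in sham hearts, which made 3 of 9 members called, beside 5.42% of all genes in either direction and 4.04% in this one. The median log2 fold change was 1.42 over the members and 0.03 over all genes. Of the 10 cardiomyocyte markers, 4 were called higher at this dose, with a median of 0.89. Myom1 had 2.13 ± 0.38 (SE; edgeR adjusted p = 0.011), Actn2 1.84 ± 0.44 (SE; edgeR adjusted p = 0.0337) and Ldb3 1.42 ± 0.31 (SE; edgeR adjusted p = 0.0234). For each of these 3 genes the pair of AngII libraries lay above the pair of sham libraries. Ttn had 1.90 ± 0.57 (SE; edgeR adjusted p = 0.0667) and Tcap 1.72 ± 0.50 (SE; edgeR adjusted p = 0.0618), Des 0.82, Nebl 0.64, Myom2 0.25 and Myoz2 -0.28. Each call was lost without certain single libraries and kept without others, while the log2 fold changes stayed between 1.34 and 2.32. Without sham library 12, which held the most ribosomal RNA, they were 2.04 for Myom1 (edgeR adjusted p = 0.113), 1.37 for Ldb3 (edgeR adjusted p = 0.174) and 1.56 for Actn2 (edgeR adjusted p = 0.229). Without sham library 11 they were 2.25 for Myom1 (edgeR adjusted p = 0.0616), 1.49 for Ldb3 (edgeR adjusted p = 0.104) and 2.19 for Actn2 (edgeR adjusted p = 0.0858). Ldb3 was also not called without AngII library 5 (edgeR adjusted p = 0.0775) or 6 (edgeR adjusted p = 0.0708), nor Actn2 without library 6 (edgeR adjusted p = 0.145). Without library 3 or 4, of another dose, the test called 5 members.

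**Figure D4:**
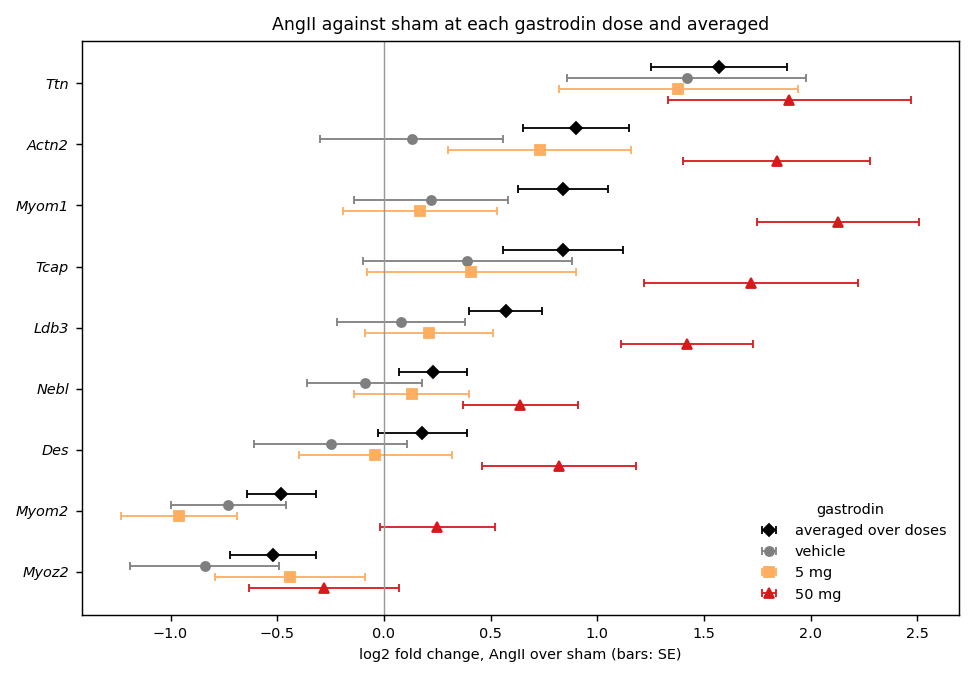
Log2 fold change of AngII over sham for each gene, averaged over doses (black) and at vehicle, 5 mg and 50 mg (grey, orange and red, 2 libraries against 2); bars are standard errors. Ttn is between 1.38 and 1.90 at each dose, while Myom1 is 0.22 with vehicle, 0.17 at 5 mg and 2.13 at 50 mg. Myom2, the member called lower over the doses, is -0.73, -0.96 and 0.25. Its averaged value on log2(TPM + 1) is 0.12, where the median over all genes is 0.216.

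Gastrodin itself was compared with vehicle inside each arm. In AngII hearts 0 of 9 members were called at either dose by edgeR, limma-voom or DESeq2, where edgeR called 0.00598% of all genes at 5 mg and 0.012% at 50 mg. At 5 mg the log2 fold changes ran from -0.51 to 0.28 with no member at an unadjusted p under 0.05. At 50 mg they ran from -0.25 to 1.06, and the highest, Myom1, at 244 ± 38.4 CPM with 50 mg and 117 ± 43.1 CPM with vehicle (SD, n = 2 each), was the member with an unadjusted p under 0.05 (1.06 ± 0.37, SE; edgeR adjusted p = 1). Ttn, by contrast, averaged 687 ± 39.2 CPM with 50 mg and 573 ± 280 CPM with vehicle (SD, n = 2 each).

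In sham hearts each of the 9 members had a lower mean with gastrodin than with vehicle, and none of those differences passed the test. Among all tested genes, 48% were higher at 5 mg and 50% at 50 mg. At 50 mg cardiomyocyte markers had a median log2 fold change of -0.63 and fibroblast markers one of 1.38, with 0 called in either list. At 5 mg the members' log2 fold changes ran from -0.54 to -0.16, beside 0.0179% of all genes called and no member at an unadjusted p under 0.05. DESeq2 and limma-voom also called 0. At 50 mg they ran from -1.27 to -0.22 with a median of -0.90, where all genes had a median of 0.00 and 0.149% were called. The unadjusted p was under 0.05 for 7 members, limma-voom called 0 and DESeq2 called 2, Myom2 and Ldb3. Myom2 stood at 60.9 ± 11.4 CPM with 50 mg and 133 ± 3.5 CPM with vehicle (SD, n = 2 each), a log2 fold change of -1.12 ± 0.28 (SE; edgeR adjusted p = 0.221). Ldb3 stood at 37.3 ± 2.26 CPM with 50 mg and 81 ± 20.7 CPM with vehicle (SD, n = 2 each), a log2 fold change of -1.12 ± 0.30 (SE; edgeR adjusted p = 0.26). Actn2 had -1.27 ± 0.44 (SE; edgeR adjusted p = 0.383) and Ttn -0.22 ± 0.55 (SE; edgeR adjusted p = 0.958). These sham libraries with 50 mg are the same as those in the AngII comparison at 50 mg, so both sets of values share them. They include library 12, with 11.1% ribosomal RNA.

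The interaction tests ask whether the gastrodin difference itself differs between AngII and sham hearts. At 5 mg 0 of 9 members were called by edgeR, limma-voom or DESeq2, none had an unadjusted p under 0.05, and 0.00598% of all genes were called. At 50 mg each of the 9 had a positive value, 0.49 to 1.91, beside 48.8% of all tested genes. Of the 9, 0 were called, beside 0.0299% of all genes. The unadjusted p was under 0.05 for 4 members, Myom1, Myom2, Ldb3 and Actn2, while limma-voom called 0 and DESeq2 called Myom1. Myom1 had 1.91 ± 0.52 (SE; edgeR adjusted p = 0.417), Actn2 1.70 ± 0.61 (SE; edgeR adjusted p = 0.639) and Ttn 0.49 ± 0.77 (SE; edgeR adjusted p = 0.971).

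Levels of different genes can be set side by side per length only, for which the authors' TPM serve. Over the 12 libraries the mean level was 429 TPM for Tcap, 110 for Myoz2, 69.7 for Des, 59.5 for Myom1, 39.8 for Actn2, 16.4 for Myom2, 15.5 for Ldb3, 5.88 for Ttn and 1.63 for Nebl. Tcap exceeded Myoz2, Ldb3 exceeded Ttn and Ttn exceeded Nebl in 12 of 12 libraries. Myoz2 exceeded Des and Actn2 exceeded Myom2 in 11 of 12, and Des exceeded Myom1 and Myom1 exceeded Actn2 in 10 of 12. Myom2 and Ldb3 could not be ordered over the series, because Myom2 was the higher in 0 of 6 AngII libraries and in 6 of 6 sham libraries. TPM here are shares of all RNA, mitochondrial RNA included, so each member's TPM also moves with the nuclear share. Ttn, for example, was 1.89 to 18.7 TPM among AngII libraries and 1.11 to 2.75 TPM among sham libraries. The order also depends on the length used: counts divided by TPM give Myom1 a length of 3006 bases, where its annotated exons cover 10459, and in CPM per kb of annotated exon the order was Tcap, Des, Myoz2, Actn2, Ldb3, Myom1, Myom2, Ttn and Nebl.

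The members' profiles over the 12 libraries were compared with those of 1853 genes with a mean of at least 10 CPM, by the root mean square difference of centred log2 CPM. The genes nearest to Ttn were Tmem259 at 0.23, Baz1b at 0.26 and Phldb1 at 0.26, where Ttn's own departure from its mean was 0.92. Myom1 was nearest to Myo18b (0.25), Myom2 to Fsd2 (0.23), Actn2 to the cardiac troponin gene Tnni3 (0.21), Ldb3 to the acyl-CoA synthetase gene Acsl1 (0.12) and Tcap to the ATP synthase gene Atp5d (0.18). Des was nearest to Usp13 (0.18), Nebl to Sgta (0.14) and Myoz2 to the ATP synthase gene Atp5c1 (0.17). Within the set, Nebl and Des were closest to each other, at 0.23, and Ttn and Myoz2 farthest apart, at 1.25. The points share library depth and composition, and these distances are descriptions without a test.

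Other genes of the same structures did not share a single direction in the averaged AngII comparison. Of 28 other Z-disc genes, 27 were tested, of which 3 rose and 8 fell, beside 13.4% of all genes called higher and 7.53% lower, with a median log2 fold change of -0.37 where all genes had 0.10. Named by smallest p, Xirp2, an actin-binding protein of the intercalated disc, had -1.14 ± 0.15 (SE; edgeR adjusted p = 0.00118), although its exons overlap Gm13601 on the other strand. Pdlim5, a PDZ-LIM protein that binds alpha-actinin, had -0.88 ± 0.19, Capza2, a subunit of the actin-capping protein, -0.86 ± 0.21, and Csrp3, the muscle LIM protein, -0.73 ± 0.19 (SE; edgeR adjusted p = 0.00762, 0.0156 and 0.0205 in that order).

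Of 20 titin partners and other M-band genes, 7 rose and 3 fell beside the same shares of all genes, with a median log2 fold change of 0.24. Rbm20, the splicing factor that sets which titin exons are kept, averaged 45.7 ± 17.5 CPM among AngII libraries and 9.85 ± 3.19 CPM among sham libraries (SD, n = 6 each), a log2 fold change of 2.23 ± 0.25 (SE; edgeR adjusted p = 0.000526) with no overlap between the arms. Speg, a muscle kinase, averaged 161 ± 68.2 CPM among AngII libraries and 42.1 ± 17.4 CPM among sham libraries (SD, n = 6 each), a log2 fold change of 1.98 ± 0.33 (SE; edgeR adjusted p = 0.00256). In the other direction, Ankrd1, an ankyrin-repeat protein that binds titin's spring region, had -1.68 ± 0.25 (SE; edgeR adjusted p = 0.00148), and Fhl1, a LIM protein that binds titin, had -1.26 ± 0.25 (SE; edgeR adjusted p = 0.00569).

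Of 22 intermediate filament and costamere genes, 3 rose, a share near the 13.4% of all genes called higher, and 3 fell, with a median log2 fold change of 0.04. Dsg2, a desmosomal cadherin, had 1.90 ± 0.26 (SE; edgeR adjusted p = 0.00122), Itga7, the integrin alpha subunit of muscle, 0.81 ± 0.21 (SE; edgeR adjusted p = 0.0196), and Plec, the linker of desmin filaments, 1.15 ± 0.32 (SE; edgeR adjusted p = 0.0234). Itgb1, the integrin beta subunit, had -0.87 ± 0.23 (SE; edgeR adjusted p = 0.0218). Exons of Dsg2, Itga7 and Plec overlap those of other genes. At 50 mg alone, 2 of the other Z-disc genes, 6 of the titin partners and 1 of the third list rose, beside 4.04% of all genes called higher.

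Other cell types' markers moved beside these genes in the averaged comparison, and their part in the members' differences was not tested. Cardiomyocyte markers rose in 5 of 10 cases and fell in 1. Endothelial markers summed to 107 to 238 CPM among AngII libraries and 80.8 to 104 CPM among sham libraries, with 6 of 10 called higher, and smooth muscle and pericyte markers to 121 to 341 CPM among AngII libraries and 90 to 179 CPM among sham libraries, with 6 of 10 called higher. Fibroblast markers summed to 207 to 332 CPM among AngII libraries and 200 to 744 CPM among sham libraries, with 7 of 10 called lower. Red cell markers summed to 1030 to 3351 CPM among AngII libraries and 290 to 1745 CPM among sham libraries, with 5 of 7 called higher, and macrophage markers to 26.5 to 95.3 CPM among AngII libraries and 35.3 to 147 CPM among sham libraries, with 3 of 9 called lower. Atrial markers, of which 7 of 8 were in the matrix, summed to 107 to 235 CPM among AngII libraries and 321 to 709 CPM among sham libraries. Of the 7, 1 was called higher and 1 lower, with a median log2 fold change of 0.24. The gene called lower, Nppa, averaged 170 ± 48.6 CPM among AngII libraries and 485 ± 156 CPM among sham libraries (SD, n = 6 each) and made up most of the sum. Lung markers summed to 2.14 to 11.4 CPM among AngII libraries and 0.0559 to 2.61 CPM among sham libraries. In the comparison at 50 mg alone, 7 of 10 fibroblast markers were called lower, with a median log2 fold change of -1.90. There 5 of 7 red cell markers were called higher, with a median of 2.41. What part these had in the members' values at 50 mg was not tested.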

How the data were processed

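RNA of 12 mouse heart libraries was extracted with a column kit, prepared with TruSeq from 1 µg and sequenced as paired ends of 250 bases, per the labels' protocols. HISAT2 2.2.1 and StringTie 2.1.3 on GRCm38.p6 are named in the submitters' processing notes; the sources used here do not give the counting program, annotation or strand setting. Raw counts of 27504 genes make up the deposited matrix, which the authors did not normalise. The deposited TPM files list 14271 genes, per the file headers.

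The counts went through edgeR 4.0.16 in R 4.3.3: filterByExpr by group, TMM, 1 mean per group over 12 libraries (6 residual degrees of freedom), quasi-likelihood F-tests, 2-sided, Benjamini-Hochberg adjustment over 16723 genes, threshold 0.05. The biological coefficient of variation was 0.476. Standard errors are the log2 fold change over the root of F. CPM are TMM-scaled. Intervals of levels are SDs between libraries. Ribosomal and mitochondrial genes stayed in the fit. Positions and exon lengths are from GENCODE M21 on GRCm38, promoter windows from RefSeq. No pair of libraries agreed within sampling noise. The procedure was tested on simulated counts without trends on exon length, GC content or nuclear share, so it was not tested against those.

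The members, the gene lists, the tests and the alternatives were chosen with earlier results of these data known. The rule names the 9 members, the 4 smallest p of each of 3 lists, the 3 genes most like Ttn and the nearest to each other member. The alternatives, described in the closing section, used limma 3.58.1 and DESeq2 1.42.0 besides edgeR.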

Additional observations from a re-analysis of the deposited data

How the results depend on the processing

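The number of members called in the averaged AngII comparison, 5, was 0 with the nuclear share as a covariate, 3 with the length trend removed and 3 with the GC trend removed. It was 7 with DESeq2, 6 each with a filter of 1 CPM in 6 libraries, without mitochondrial, ribosomal and haemoglobin genes, and with overlapping genes summed, 5 with limma-voom, with no filter and on log2(TPM + 0.1), and 4 with DESeq2 size factors and on log2(TPM + 1). Leaving out 1 library gave 1 (without AngII vehicle library 1) to 7 (without AngII 5 mg library 4), with 2 without library 6, 8, 10 or 12 and 3 without library 3, 9 or 11. With libraries 4 and 12 left out together, 6 members were called. In vehicle the count was 0 and became 1 with DESeq2 and 1 with no filter. At 5 mg it was 0 and became 1 with DESeq2, 1 with no filter and 1 without libraries 4 and 12, and 0 to 1 without single libraries (1 without library 4). At 50 mg it was 3 and became 5 with DESeq2, 5 with no filter, 1 with the length trend removed, and 0 on log2(TPM + 1) and 0 on log2(TPM + 0.1). There, leaving out 1 library gave 0 (without library 11 or 12) to 5 (without library 3 or 4). Gastrodin at 50 mg in sham gave 2 with DESeq2 and 1 with no filter in place of 0, and its interaction 1 with DESeq2 and 1 with no filter in place of 0. The causes were not tested.

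Myom2 in the averaged comparison reversed on the TPM scale, at 0.12 on log2(TPM + 1) and 0.13 on log2(TPM + 0.1), with neither value called. The median log2 fold change of all genes was 0.097 as reported, -0.121 with the length trend removed, -0.117 with the GC trend removed, 0.288 with no filter, 0.216 on log2(TPM + 1) and 0.514 on log2(TPM + 0.1), so a member's value under each is to be read relative to it. Ttn was called in 12 of 12 refits without a library and in 12 of 13 other alternatives. No paired analysis was possible because the labels number the libraries 1 to 12 and no 2 groups share a number. A group left with 1 library is assumed to vary like the others. Restriction to the compared groups gave no separate value for the averaged comparison, which uses every group.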
